A study of Mus musculus with 27 samples.

Results

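The genes of the major histocompatibility complex (MHC) class I pathway described here in mouse lung number 10. They were taken by name out of the 20239 named genes of the array, and each had a single probe set. They are the classical heavy chains H2-K1 and H2-D1, the nonclassical heavy chains H2-Q6, H2-Q9, H2-Q10, H2-T22, H2-T23 and H2-M3, the light chain B2m and the peptide transporter subunit Tap1. RNA of the right lung was measured in 11-week-old female mice of 9 inbred strains, with 3 mice per strain and 1 array per mouse. The design set each strain against every other, which gives 36 strain pairs, and then set strain groups of increased and decreased spontaneous pulmonary adenoma severity and frequency against each other. The labels give increased severity and frequency to A/J, C57BL/6J and DBA/2J, and decreased severity and frequency to KK/HlJ and MRL/MpJ. For C3H/HeJ, BALB/cJ, C57L/J and 129S1/SvlmJ they give increased severity with decreased frequency. The classes belong to the strains and not to the single mice, no treatment is labelled, and the lungs are labelled normal.

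The H2 complex on chromosome 17 is the mouse MHC, and inbred strains carry fixed combinations of its alleles called haplotypes. As textbook background, C3H/HeJ and MRL/MpJ carry haplotype k, BALB/cJ and DBA/2J carry d, and 129S1/SvlmJ, C57BL/6J and C57L/J carry b. A/J carries the recombinant haplotype a, with k alleles at the K and class II end and d alleles at the D end. The haplotype of KK/HlJ was not taken as known here. A class I molecule is a heavy chain bound to beta-2-microglobulin, the product of B2m, and to a peptide that the TAP transporter moves into the endoplasmic reticulum. H2-K and H2-D present peptides to CD8 T cells on nearly all nucleated cells, and natural killer cells sense their loss. The nonclassical molecules have narrower roles, several of them in the recognition of stressed or infected cells by innate-like lymphocytes.

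The strain labels were set against H2-Ea, a class II chain gene that haplotype b cannot transcribe because of a deletion at its start. On the log2 signal scale, H2-Ea averaged 4.79 ± 0.22 in C57BL/6J and 4.90 ± 0.04 in 129S1/SvlmJ (SD, n = 3 each). It averaged 10.92 to 11.42 in the k, d and a strains. The arrays labelled C57L/J read 11.17 ± 0.09 (SD, n = 3), which goes against haplotype b, so results that rest on them are also given without them. In KK/HlJ it averaged 4.88 ± 0.32 (SD, n = 3), at the level of C57BL/6J and 129S1/SvlmJ. Arrays correlated at 0.984 to 0.997 within strains and at 0.976 to 0.993 between strains over all genes. The array names carry run numbers that follow the strains, apart from 1 MRL/MpJ array run after all others, so run order and strain cannot be told apart. In whole lung RNA, fewer cells of a type and less RNA per cell cannot be told apart either. Y-linked genes, which females lack, gave strain means of 2.5 to 5.25, with 3.56 the highest when Sry is left out, and levels in that range were not read as expression.

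The start regions of 6 of the genes are shown because the genes fall into sets that moved together among the strains, H2-D1 with H2-Q6 and H2-T22 with H2-T23, beside H2-K1 and H2-Q10, which followed neither. Each run is the 250 bases before the transcription start, 5′ to 3′ on the gene's own strand, from RefSeq on GRCm38.p6, which is C57BL/6J sequence. RefSeq's table held 9 of the 10 genes, and H2-Q9 was not among them. Capitals mark exact matches, searched on both strands, to 3 elements known from class I promoters. GGGGATTCC is the core of enhancer A, a binding site of NF-kappa B factors, TTCNNTTTC is an interferon response element, and TGACGC resembles the X2 box. The motifs do not overlap in these windows.
H2-K1: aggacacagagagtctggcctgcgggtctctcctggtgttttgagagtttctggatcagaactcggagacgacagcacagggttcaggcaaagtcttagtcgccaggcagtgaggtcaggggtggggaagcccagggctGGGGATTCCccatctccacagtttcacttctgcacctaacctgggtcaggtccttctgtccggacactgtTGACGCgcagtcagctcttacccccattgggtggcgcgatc
H2-D1: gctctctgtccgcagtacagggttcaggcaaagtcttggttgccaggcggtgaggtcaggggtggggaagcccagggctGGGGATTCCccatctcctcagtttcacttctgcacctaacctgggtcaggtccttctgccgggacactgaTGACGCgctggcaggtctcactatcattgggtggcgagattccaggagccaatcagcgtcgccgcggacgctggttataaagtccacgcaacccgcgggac
H2-Q6: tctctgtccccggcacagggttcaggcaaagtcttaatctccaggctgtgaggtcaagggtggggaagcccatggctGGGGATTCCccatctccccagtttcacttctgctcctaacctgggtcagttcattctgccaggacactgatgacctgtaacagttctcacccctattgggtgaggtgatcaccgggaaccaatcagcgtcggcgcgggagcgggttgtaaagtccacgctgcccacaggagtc
H2-Q10: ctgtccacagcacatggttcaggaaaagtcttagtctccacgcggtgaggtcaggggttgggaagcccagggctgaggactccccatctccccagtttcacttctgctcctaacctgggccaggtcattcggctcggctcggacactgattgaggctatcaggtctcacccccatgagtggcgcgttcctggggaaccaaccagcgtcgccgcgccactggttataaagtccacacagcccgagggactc
H2-T22: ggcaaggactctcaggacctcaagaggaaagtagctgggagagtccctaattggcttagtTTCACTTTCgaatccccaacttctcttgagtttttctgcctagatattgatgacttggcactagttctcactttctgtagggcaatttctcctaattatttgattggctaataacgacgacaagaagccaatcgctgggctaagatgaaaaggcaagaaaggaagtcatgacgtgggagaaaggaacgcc
H2-T23: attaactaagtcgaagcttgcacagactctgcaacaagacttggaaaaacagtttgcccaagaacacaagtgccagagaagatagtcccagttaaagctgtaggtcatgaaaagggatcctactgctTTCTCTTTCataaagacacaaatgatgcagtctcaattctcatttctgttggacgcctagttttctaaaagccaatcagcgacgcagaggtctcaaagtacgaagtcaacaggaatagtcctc
The windows are chr17:34000348-34000597 on the minus strand for H2-K1, chr17:35262844-35263093 on the plus strand for H2-D1 and chr17:35424600-35424849 on the plus strand for H2-Q6. They are chr17:35469839-35470088 on the plus strand for H2-Q10, chr17:36042743-36042992 on the minus strand for H2-T22 and chr17:36032702-36032951 on the minus strand for H2-T23. All are upstream flanking sequence and not exons of the named gene.

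The enhancer A letters stood 111 bases before the start of H2-K1, 171 before that of H2-D1 and 173 before that of H2-Q6. Those letters occur in 59 of 27025 mouse promoter windows of this length (0.218%). The X2-like letters stood 41 bases before the start of H2-K1, 101 before that of H2-D1 and 46 before that of H2-M3, and occur in 1660 of the 27025 windows (6.14%). The interferon element stood 190 bases before the start of H2-T22, 123 before that of H2-T23 and, on the minus strand, 139 before that of B2m. It occurs in 1934 of the 27025 windows (7.16%). H2-K1 and H2-D1 thus share the same motif letters in C57BL/6J sequence, while their levels followed different orders among the strains, as described next. The windows of H2-Q10 and Tap1 hold none of these exact letters. Those of H2-K1, H2-D1, H2-Q6, H2-Q10 and H2-M3 hold TTCACTTCT, which resembles TTCNNTTTC but did not count as a match. The lack of an exact match is therefore not read as the lack of an interferon element. A match describes letters only, and the sequences of the other 8 strains were not analysed here.

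Most of the class I genes differed among the strains. In a moderated F test over the 9 strains with limma, 9 of the 10 genes passed at a Benjamini-Hochberg adjusted p under 0.05, beside 28.9% of all named genes. The gene that did not pass was H2-Q10 (adjusted p = 0.199). The median spread between the highest and the lowest strain mean was 1.32 for the class I genes on the log2 scale, beside 0.34 over all named genes. A strain pair counted as called for a gene when the strains differed by 1 or more on the log2 scale in either direction, with an adjusted p below 0.05 over all genes of that pair. The 10 genes had 84 calls in 360 combinations of gene and pair (23.3%), beside 0.655% over all named genes. The 5 genes H2-D1, H2-Q6, H2-Q9, H2-T22 and H2-T23 were called in 14 or more pairs, beside 0.41% of all named genes. H2-K1 was called in 1 pair, and 4.27% of all named genes were called in at least 1. H2-Q10, H2-M3, B2m and Tap1 were called in none.

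**Figure D1:**
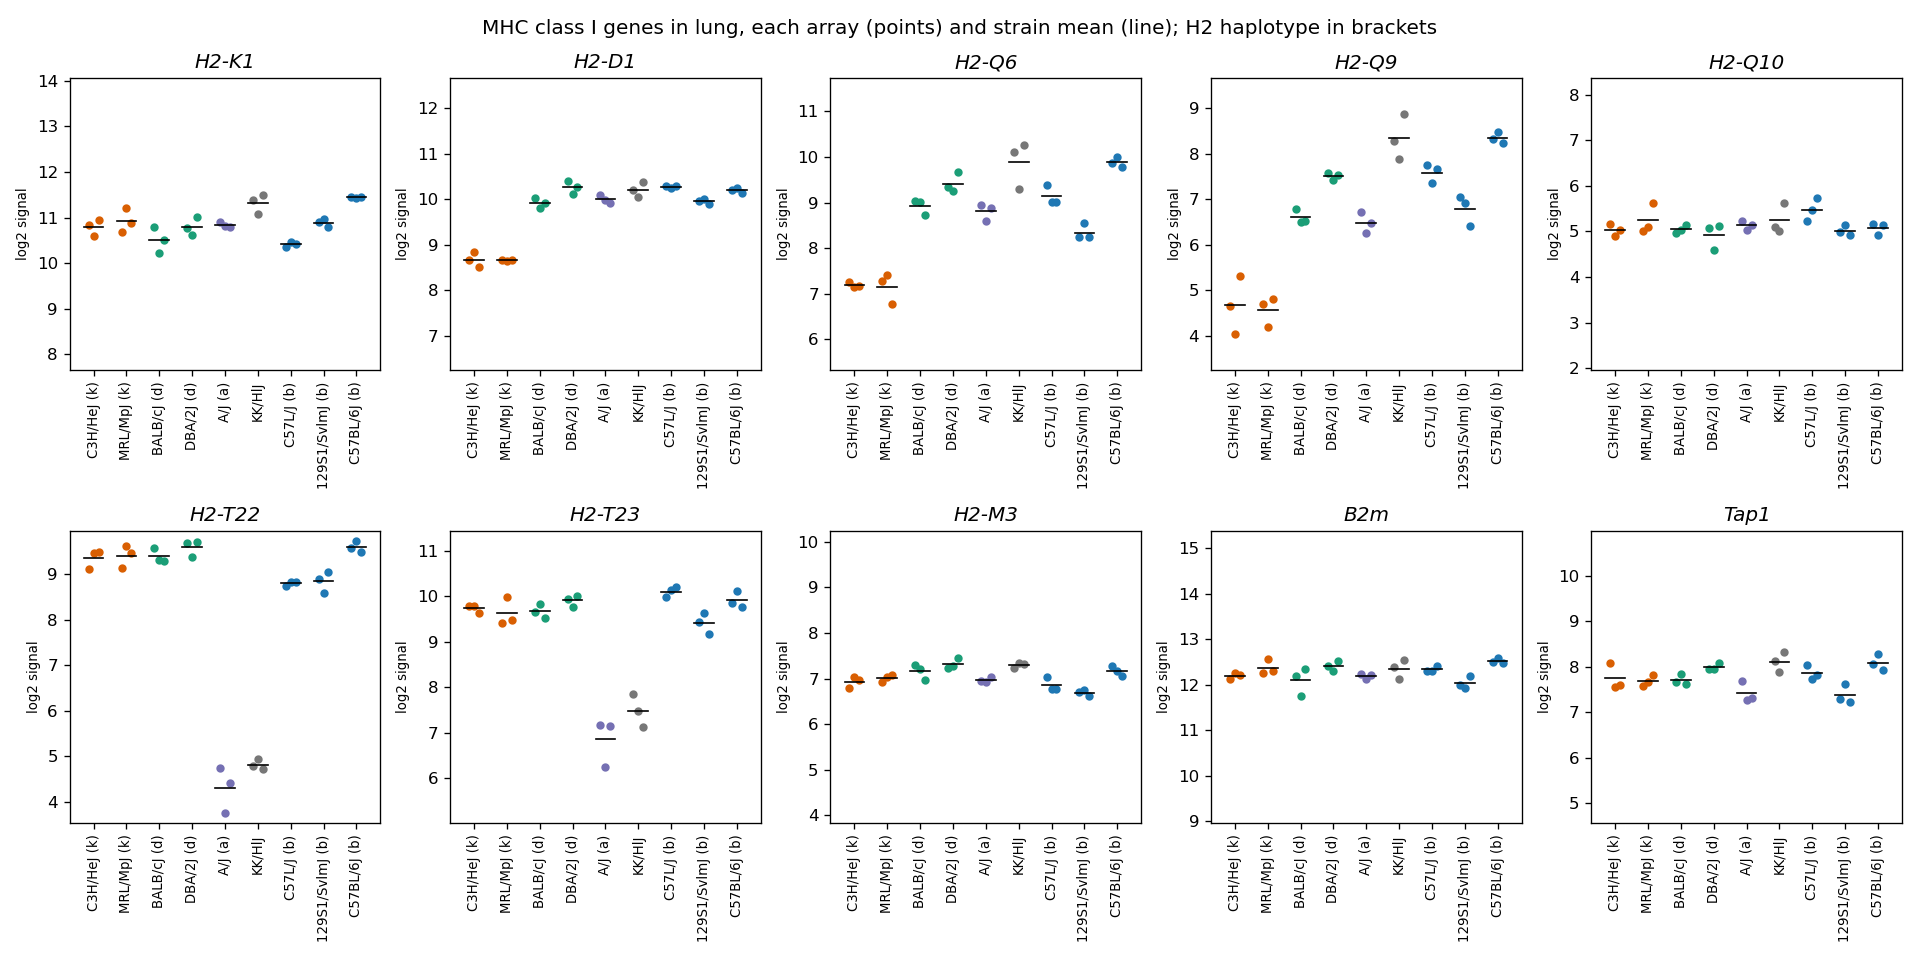
Log2 signal of the 10 class I genes, with each array a point and each strain mean a line; the letter in brackets is the H2 haplotype and all panels span the same number of log2 units. H2-D1, H2-Q6 and H2-Q9 are lowest in C3H/HeJ and MRL/MpJ, H2-T22 and H2-T23 are lowest in A/J and KK/HlJ, and B2m hardly varies.

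H2-D1, the classical heavy chain of the D end, fell in both strains with haplotype k and in no other strain. Its log2 signal was 8.67, 8.84 and 8.50 in the 3 C3H/HeJ mice and 8.67, 8.64 and 8.67 in the 3 MRL/MpJ mice. The other 21 arrays lay at 9.81, in a BALB/cJ mouse, or above. The k arrays therefore did not overlap with any other array. Against the mean of the other 8 strains, H2-D1 differed by -1.26 ± 0.07 in C3H/HeJ (SE, adjusted p = 1.32e-11) and by -1.27 ± 0.07 in MRL/MpJ (SE, adjusted p = 7.21e-12). It rose in C57L/J (0.54), DBA/2J (0.52), KK/HlJ (0.47) and C57BL/6J (0.45) against the same kind of mean, which the 2 low strains pull down. Pooled over the 9 strains, 3.8% of all genes passed this comparison as higher and 3.75% as lower.

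The order of the 9 strain means of H2-D1 had a single step past the threshold. BALB/cJ, the lowest of the 7 high strains at 9.91 ± 0.11, and C3H/HeJ at 8.67 ± 0.17 (SD, n = 3 each) were separated by 1.25 (adjusted p = 5.88e-09), a 2.37-fold step. No other pair of neighbours in the order differed beyond the test. The strains C3H/HeJ and MRL/MpJ themselves differed by 0.01 ± 0.09 (SE, adjusted p = 0.971). A/J, whose D end is of d origin, averaged 9.99 ± 0.10 (SD, n = 3), which was above C3H/HeJ by 1.32 (adjusted p = 1.32e-09) and above MRL/MpJ by 1.34 (adjusted p = 6.6e-10). Against the d strains, A/J minus BALB/cJ was 0.08 ± 0.09 (SE, adjusted p = 0.802) and A/J minus DBA/2J was -0.26 ± 0.09 (SE, adjusted p = 0.104).

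The Q region encodes Qa-2, a class I molecule that is anchored in the membrane by a lipid, and H2-Q6 and H2-Q9 are 2 of its genes. Both fell in the k strains. H2-Q6 read 7.25, 7.14 and 7.16 in C3H/HeJ and 7.28, 7.40 and 6.78 in MRL/MpJ. It read 9.87, 10.01 and 9.79 in C57BL/6J and between 9.29 and 10.27 in the 3 KK/HlJ mice. No array of the 7 other strains came below 8.24, so the k arrays stood apart here too. The 129S1/SvlmJ arrays, at 8.24, 8.54 and 8.24, were the lowest of the others although that strain shares haplotype b with C57BL/6J. The values were 8.95, 8.59 and 8.87 in A/J, 9.03, 9.02 and 8.73 in BALB/cJ, 9.33, 9.25 and 9.66 in DBA/2J, and 9.38, 9.01 and 9.02 in the arrays labelled C57L/J. Against the other 8 strains, H2-Q6 differed by -1.76 ± 0.14 in C3H/HeJ (SE, adjusted p = 1.75e-08) and by -1.80 ± 0.14 in MRL/MpJ (SE, adjusted p = 1.01e-08). It rose by 1.28 in both C57BL/6J (adjusted p = 1.47e-06) and KK/HlJ (adjusted p = 1.35e-06), and by 0.75 in DBA/2J (adjusted p = 0.00189), the last of which was lost without DBA/2J replicate 3 (adjusted p 0.0514).

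H2-Q9 had the wider range of the 2 genes and nearly the same order. It read 4.66, 4.03 and 5.31 in C3H/HeJ and 4.70, 4.19 and 4.80 in MRL/MpJ, values that lay about where the Y-linked genes lay. For that reason no fold is given against these strains. At the other end it read 8.28, 7.89 and 8.87 in KK/HlJ and 8.32, 8.48 and 8.23 in C57BL/6J. The strains between them ranged from 6.26, in A/J, to 7.74, in an array labelled C57L/J, and so touched neither end. H2-Q9 differed from the other 8 strains by -2.36 ± 0.19 in C3H/HeJ (SE, adjusted p = 1.26e-08) and by -2.48 ± 0.19 in MRL/MpJ (SE, adjusted p = 3.69e-09). It rose by 1.78 in C57BL/6J (adjusted p = 6.71e-07) and in KK/HlJ (adjusted p = 5.36e-07). The largest step between neighbouring strains was 1.81, between A/J at 6.48 ± 0.23 and C3H/HeJ at 4.67 ± 0.64 (SD, n = 3 each; adjusted p = 4.54e-05).

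Strains of haplotype b did not share a single Q level. In 129S1/SvlmJ against C57BL/6J, H2-Q6 averaged 8.34 ± 0.17 and 9.89 ± 0.11, a difference of -1.55 (SD, n = 3 each; adjusted p = 6.29e-06). H2-Q9 averaged 6.79 ± 0.35 in 129S1/SvlmJ and 8.34 ± 0.13 in C57BL/6J, again a difference of -1.55 (SD, n = 3 each; adjusted p = 0.000186). In KK/HlJ and C57BL/6J, by contrast, the means were 9.88 and 9.89 for H2-Q6 and 8.35 and 8.34 for H2-Q9. H2-Q8, another gene of the Q region, fell in 129S1/SvlmJ as well, by 1.40 against the other 8 strains (adjusted p = 2.63e-07), and was highest in A/J at 8.71. The Q genes are near-identical copies of each other, so a probe set named for H2-Q6 or H2-Q9 can take up signal of several of them, and the split between them is uncertain.

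H2-Q10, which in mice is best known as a soluble class I molecule secreted by the liver, was near the background in lung. Its strain means ran from 4.93 ± 0.29 in DBA/2J to 5.48 ± 0.26 in the arrays labelled C57L/J (SD, n = 3 each), beside 5.25 for the highest Y-linked strain mean. No strain pair was called for it, and no strain was called against the other 8. The arrays labelled C57L/J were called higher in 4 of 34 other settings (adjusted p 0.0252 to 0.0344), among them the replicate block.

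**Figure D2:**
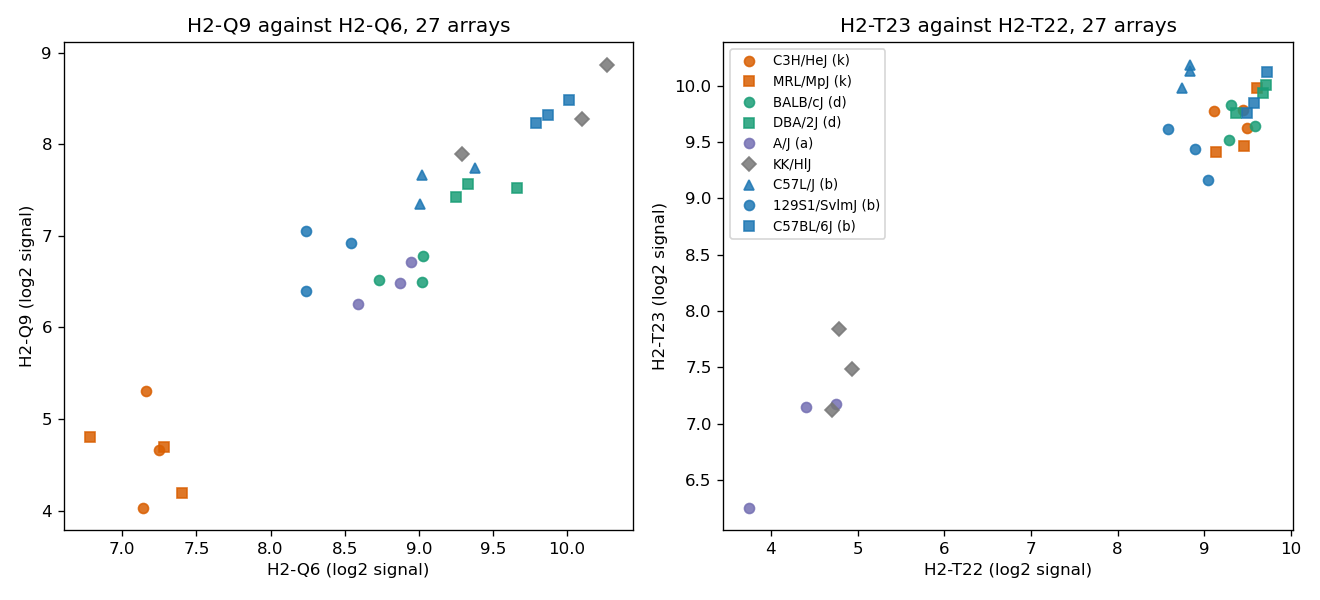
Log2 signal of H2-Q9 against H2-Q6 (left) and of H2-T23 against H2-T22 (right), with each of the 27 arrays a point, colours for H2 haplotypes and marker shapes for strains. In the left panel the 6 arrays of C3H/HeJ and MRL/MpJ form the low end, and in the right panel the 6 arrays of A/J and KK/HlJ do.

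H2-T22 and H2-T23 split the strains in another way. H2-T22, a molecule bound by a subset of gamma delta T cells, fell to background in A/J and KK/HlJ. It read 4.75, 3.75 and 4.41 in A/J and 4.79, 4.93 and 4.71 in KK/HlJ, all within the range of the Y-linked genes. The other 21 arrays lay between 8.58, in a 129S1/SvlmJ mouse, and 9.72, in a C57BL/6J mouse. Nothing lay in the gap between 4.93 and 8.58, and no fold is given against the 2 low strains. Against the other 8 strains, H2-T22 differed by -4.42 ± 0.13 in A/J (SE, adjusted p = 1.35e-16) and by -3.85 ± 0.13 in KK/HlJ (SE, adjusted p = 5.61e-16). The step in the order of strains fell between C57L/J and KK/HlJ and measured 3.99 (adjusted p = 1.17e-13). A/J and KK/HlJ were both at background, so no order between them is read.

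H2-T23 encodes Qa-1, which presents leader peptides of other class I molecules to the CD94/NKG2 receptors of natural killer cells. It fell in A/J and KK/HlJ but stayed above background. The values were 7.17, 6.25 and 7.15 in A/J and 7.84, 7.48 and 7.12 in KK/HlJ. The other 21 arrays lay between 9.16, in a 129S1/SvlmJ mouse, and 10.19, in an array labelled C57L/J, so these 2 strains did not overlap with the rest. Against the other 8 strains, H2-T23 differed by -2.62 ± 0.15 in A/J (SE, adjusted p = 3.78e-11) and by -1.92 ± 0.15 in KK/HlJ (SE, adjusted p = 4.44e-09). In A/J against C57BL/6J the means were 6.86 ± 0.52 and 9.91 ± 0.19 (SD, n = 3 each), an 8.30-fold difference. The step between 129S1/SvlmJ and KK/HlJ was 1.93 (adjusted p = 5.63e-07), and that between KK/HlJ and A/J was 0.62 (adjusted p = 0.0601).

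H2-T10, a close relative of H2-T22 that the same gamma delta T cells bind, went the other way. It rose in KK/HlJ, by 1.10 (adjusted p = 7.9e-05), and in A/J, by 0.82 (adjusted p = 0.00265), against the other 8 strains, and fell by 0.82 in the arrays labelled C57L/J (adjusted p = 0.00235). H2-T24, another T region gene, fell by 0.43 in A/J (adjusted p = 0.00395) and by 0.41 in KK/HlJ (adjusted p = 0.00474). It also fell in C57BL/6J (0.36) and C57L/J (0.54), so the low H2-T24 was not limited to the 2 strains. H2-T22 and H2-T10 are close in sequence, and their signals are uncertain to the extent that probes are shared.

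H2-K1, the classical heavy chain of the K end, did not follow the haplotypes. It was high in C57BL/6J, at 11.45, 11.42 and 11.46, and in KK/HlJ, at 11.39, 11.07 and 11.49. It was low in the arrays labelled C57L/J, at 10.36, 10.47 and 10.43, and in BALB/cJ, at 10.79, 10.22 and 10.51. The C57BL/6J and C57L/J arrays, both of haplotype b by label, stood at opposite ends and did not overlap. The remaining strains, C3H/HeJ, MRL/MpJ, A/J, DBA/2J and 129S1/SvlmJ, lay between 10.60 and 11.20. H2-K1 rose by 0.63 ± 0.10 in C57BL/6J (SE, adjusted p = 0.00022) and by 0.49 ± 0.10 in KK/HlJ (SE, adjusted p = 0.00287) against the other 8 strains. It fell by 0.52 in C57L/J (adjusted p = 0.002) and by 0.42 in BALB/cJ (adjusted p = 0.014), and the BALB/cJ call was lost without BALB/cJ replicate 2 or 3 (adjusted p 0.289 and 0.0655). Its only called pair was C57BL/6J against C57L/J, with a difference of 1.02 ± 0.14 (SE, adjusted p = 1.98e-05, 2.03-fold), and no 2 neighbours in its order differed beyond the test. That pair rests on the arrays labelled C57L/J, and it fell just short of a difference of 1 after quantile normalization and without C57L/J replicate 1.

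H2-M3, which presents N-formylated peptides of bacteria and mitochondria, varied over a narrow range of 0.63. It fell in 129S1/SvlmJ, where it averaged 6.69 ± 0.06 (SD, n = 3), by 0.40 against the other 8 strains (adjusted p = 0.000497). It rose by 0.31 in DBA/2J (adjusted p = 0.00897) and by 0.29 in KK/HlJ (adjusted p = 0.00974), calls that were lost without DBA/2J replicate 3 (adjusted p 0.147) and without KK/HlJ replicate 2 or 3 (0.081 and 0.0514). The 129S1/SvlmJ arrays, at 6.71, 6.74 and 6.62, were below all others, of which the lowest was 6.76.

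B2m, the light chain that every class I heavy chain needs, had the highest level of the 10 genes and the narrowest spread of the 9 that passed. Its strain means ran from 12.04 ± 0.14 in 129S1/SvlmJ to 12.51 ± 0.06 in C57BL/6J (SD, n = 3 each), and no strain passed against the other 8. In 5 of 35 other settings B2m was called lower in 129S1/SvlmJ (adjusted p 0.0143 to 0.0496), while C57BL/6J passed in 2 of 35 and BALB/cJ and MRL/MpJ in 1 each. Its F test was close to the threshold (adjusted p = 0.0429) and was lost in 24 of 43 other settings, where the adjusted p ran from 0.05 to 0.153. Levels of different probe sets depend on the probes as well as on the RNA, so the order of genes by level is not read here as an order of transcripts.

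Tap1, the peptide transporter subunit, had its lowest strain mean in 129S1/SvlmJ, 7.38 ± 0.21, and its highest in KK/HlJ, 8.11 ± 0.21 (SD, n = 3 each). It fell in 129S1/SvlmJ, by 0.45 against the other 8 strains (adjusted p = 0.00856), and in A/J, by 0.40 (adjusted p = 0.0242). It rose by 0.38 in KK/HlJ (adjusted p = 0.0286) and by 0.35 in C57BL/6J (adjusted p = 0.0474). The calls in 129S1/SvlmJ, A/J and KK/HlJ were each lost in 2 of 35 other settings. Those were 129S1/SvlmJ without replicate 1 or 3 (adjusted p 0.0677 and 0.105), A/J without replicate 2 or 3 (0.257 and 0.179) and KK/HlJ without replicate 1 or 3 (0.117 and 0.223). The C57BL/6J call was lost in 20 of 35 other settings, the replicate block included (adjusted p = 0.0553 there), with adjusted p of 0.0511 to 0.377. No 2 neighbouring strains in the order of Tap1 differed beyond the test.

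Levels of interferon-stimulated genes and of leukocyte markers moved in some of the same strains as Tap1. H2-K1 rose with them in C57BL/6J but was not called in 129S1/SvlmJ or A/J. Against the other 8 strains it differed by 0.01 in 129S1/SvlmJ (adjusted p = 0.976) and by -0.05 in A/J (adjusted p = 0.886). Of 19 interferon-stimulated genes, 8 rose and none fell in C57BL/6J, while 1 rose and 8 fell in 129S1/SvlmJ and 1 rose and 4 fell in A/J, each against the other 8 strains. Their summed log2 signal was 138.9 to 147.5 over the C57BL/6J arrays, 127.3 to 134.7 over the 129S1/SvlmJ arrays and 127.6 to 132.3 over the A/J arrays. In KK/HlJ, where H2-K1 and Tap1 also rose, 0 of the 19 rose and 1 fell. Over all genes, 8.16% were called in either direction in C57BL/6J, 9.97% in 129S1/SvlmJ, 5.71% in A/J and 7.38% in KK/HlJ. Of 10 pan-leukocyte markers, 3 rose and none fell in C57BL/6J (summed signal 91.8 to 93.7), and none rose and 5 fell in 129S1/SvlmJ (87.6 to 89.6). In C57BL/6J 3 of 9 natural killer cell, 2 of 10 macrophage and 3 of 9 alveolar epithelial markers rose too, and none fell. No T cell, B cell, skeletal muscle or adipocyte marker was called in C57BL/6J, and 1 of 8 endothelial markers fell. In 129S1/SvlmJ 6 of 9 B cell markers (summed signal 53.9 to 57.2), 7 of 9 natural killer cell markers (41.0 to 42.9), 2 of 9 T cell markers (55.4 to 59.3) and 3 of 8 endothelial markers (83.7 to 84.6) fell too, and none rose. Of 16 antigen processing genes none rose and 3 fell there, of 11 regulators 1 rose and 2 fell, and of 12 class II genes 3 rose and 3 fell. In the other cell type lists, falls did not outnumber rises in 129S1/SvlmJ. Of 10 macrophage markers 2 rose and 1 fell (80.9 to 81.9), and of 9 alveolar epithelial markers 2 rose and none fell (98.8 to 100.3). No skeletal muscle or adipocyte marker was called in that strain. The 9 natural killer cell markers averaged 4.69 in 129S1/SvlmJ, inside the Y-linked range, so their count can rest in part on background. The mean level of the 10 pan-leukocyte markers was 8.88 in 129S1/SvlmJ, the lowest of the 9 strains, and so above the Y-linked range everywhere. Their part in the levels of H2-K1, H2-M3, Tap1 and the processing genes and regulators described further on was not tested.

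In the strains where the D, Q and T genes were low, the summed pan-leukocyte signal lay inside the range of the other strains. It was 91.6 to 92.8 in C3H/HeJ and 89.3 to 90.7 in MRL/MpJ, where H2-D1, H2-Q6 and H2-Q9 were low, beside 87.6 to 93.7 over the other strains. In A/J and KK/HlJ, where H2-T22 and H2-T23 were low, it was 89.6 to 90.9 and 91.1 to 92.8. Macrophage markers did vary in these strains. Of 10, 4 rose and 2 fell in A/J (summed signal 80.6 to 81.8), and 5 rose and none fell in KK/HlJ (82.9 to 84.1). In C3H/HeJ 2 rose and 1 fell (80.0 to 83.3). In MRL/MpJ none rose and 4 fell (76.3 to 78.2), beside 12.4% of all genes called there in either direction. Of 9 natural killer cell markers, none was higher and 5 were lower in A/J (summed signal 40.9 to 41.4), while 2 were higher and 1 lower in KK/HlJ (46.6 to 48.5). Over all genes, 5.71% were called in either direction in A/J and 7.38% in KK/HlJ. The 9 markers averaged 4.58 in A/J, inside the Y-linked range, and some of them lay inside it in every strain. Their counts can therefore rest in part on levels not read as expression. In 129S1/SvlmJ, where 7 of these 9 markers were lower, H2-T22 averaged 8.84 and H2-T23 9.41, above every array of A/J and KK/HlJ. Beside 7.26% of all genes called in either direction, C3H/HeJ had 4 of 8 skeletal muscle markers higher, with a summed signal of 73.4 in replicate 2 beside 42.9 in the lowest array of that strain. H2-D1 read 8.84 in that replicate and was as low in the other 2. The part of these markers in the class I levels was not tested.

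Read against the H2 haplotypes, a larger share of calls was made between strains of different haplotype than between strains of the same one. In the 23 pairs of different haplotype, 56 of 230 gene and pair combinations were called (24.3%), beside 0.607% for all genes in those pairs. Apart from H2-Q6 in 129S1/SvlmJ against DBA/2J and H2-Q9 in BALB/cJ against C57BL/6J, every one of those calls involved C3H/HeJ, MRL/MpJ or A/J. The other pairs of a b with a d strain held no call, and 0.509% to 0.682% of all genes were called in single b and d pairs. The larger share thus rests on those low strains and not on every difference of haplotype. In the 5 pairs of the same haplotype 3 of 50 were called (6.0%), beside 0.64% for all genes. Those 3 were H2-Q6 and H2-Q9 in 129S1/SvlmJ against C57BL/6J and H2-K1 in C57BL/6J against C57L/J. Without the arrays labelled C57L/J the counts were 47 of 180 (26.1%, all genes 0.615%) and 2 of 30 (6.67%, all genes 0.558%). The 8 pairs with KK/HlJ held the other 25 calls of 80 (31.2%), beside 0.667% to 0.983% of all genes in the single pairs. Pairs share strains and are not independent, so these shares carry no test. C3H/HeJ and MRL/MpJ, both k, had no class I gene called between them, and nor had BALB/cJ and DBA/2J, both d. When A/J or KK/HlJ was set against C3H/HeJ or MRL/MpJ, 5 of the 10 genes were called in each of the 4 pairs, beside 0.41% to 0.766% of all genes.

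**Figure D3:**
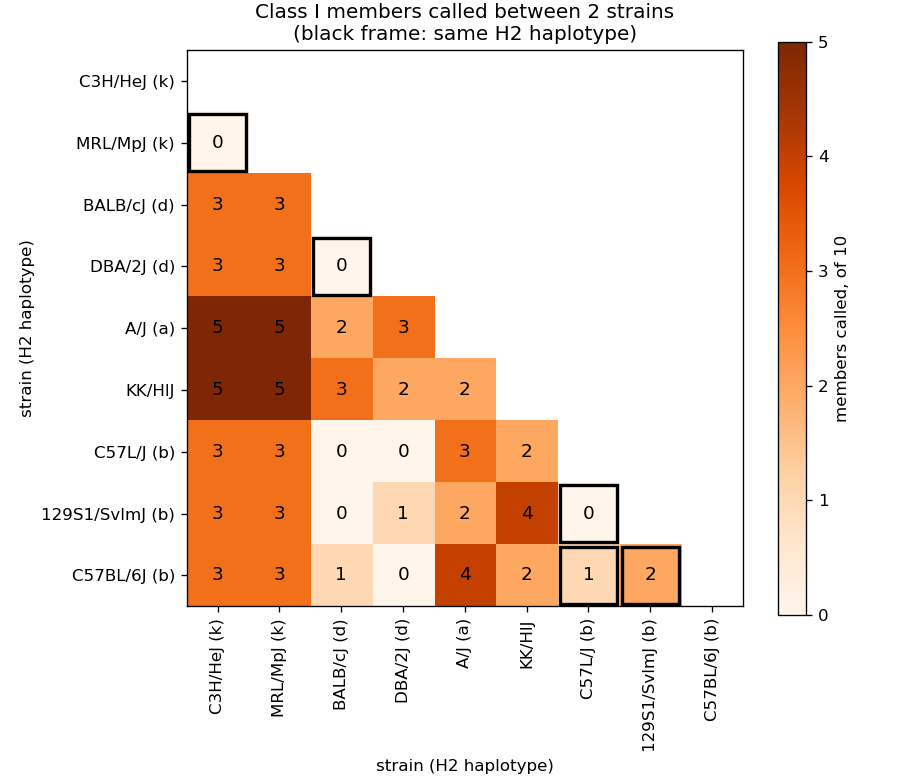
Number of the 10 class I genes called in each of the 36 strain pairs (adjusted p below 0.05 and a difference of 1 or more in log2 units), with strains and their H2 haplotype on both axes and pairs of the same haplotype framed in black. Pairs of C3H/HeJ or MRL/MpJ with other strains have 3 to 5 called genes, and the 5 framed pairs have 0, 0, 0, 1 and 2.

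A stricter reading takes the strain as the unit, since mice of a strain share the haplotype. In a limma fit on the 8 strain means of known haplotype, H2-D1 averaged 8.66 over the 2 k strains, 10.09 over the 2 d strains, 10.14 over the 3 b strains and 9.99 in A/J. It was lower in k than in b by -1.48 ± 0.13 (SE, adjusted p = 0.0489, 2.78-fold), beside 0.0198% of all genes called lower and 0.00494% called higher in this contrast. H2-D1 was the only class I gene called in it. Without the arrays labelled C57L/J the difference was -1.41 with an adjusted p of 0.155, where 0.00494% of all genes were called lower, and the call was lost in 25 of 45 other settings. H2-Q6 differed by -1.96 ± 0.40 between k and b (SE, adjusted p = 0.288) and H2-Q9 by -2.96 ± 0.45 (SE, adjusted p = 0.229), larger differences with a wider spread among the b strains. Without the arrays labelled C57L/J these 2 differences were -1.95 (adjusted p = 0.444) and -2.95 (adjusted p = 0.353). Between k and d, the differences were -1.42 for H2-D1 (adjusted p = 0.145), -2.00 for H2-Q6 (adjusted p = 0.652) and -2.44 for H2-Q9 (adjusted p = 0.598). No class I gene was called between k and d or between d and b, beside 0% of all genes for k against d and 0.00494% called lower for d against b.

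The F test over haplotypes called 1 of the 10 genes, H2-T22 (adjusted p = 0.0215), beside 0.0148% of all genes. Without the arrays labelled C57L/J its adjusted p was 0.0498, where 0.0198% of all genes were called. The H2-T22 call was lost in 8 of 45 other settings. The call rests on A/J, the single strain of haplotype a, whose mean was 4.30 beside 9.37 in k, 9.49 in d and 9.08 in b. With A/J left out the adjusted p was 0.727. H2-T23 behaved alike, with 6.86 in A/J beside 9.68, 9.78 and 9.81 in k, d and b (adjusted p = 0.0862, and 0.131 without the arrays labelled C57L/J). For H2-K1 the k and b means were 10.86 and 10.92, a difference of -0.06 ± 0.27 (SE, adjusted p = 0.939). Without the arrays labelled C57L/J that difference was -0.31 ± 0.20 (SE, adjusted p = 0.606). In H2-Q6 and H2-Q9, A/J averaged 8.81 and 6.48, nearer to the d means of 9.17 and 7.05 than to the k means of 7.17 and 4.61. Among single strains, A/J was below DBA/2J in H2-Q9, 6.48 against 7.50 (-1.02, adjusted p = 0.0135), a call lost in 4 of 35 other settings, among them those without A/J replicate 2 or DBA/2J replicate 1. The b strain 129S1/SvlmJ minus A/J gave -0.46 in H2-Q6 (adjusted p = 0.193) and 0.31 in H2-Q9 (adjusted p = 0.614).

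The position of the low genes along chromosome 17 was described for 175 measured genes from H2-K1 to H2-M2, of which 26 were class I genes. H2-Q8 and H2-Q9 were not among the 175 in the gene order used, so they are not counted here. This stretch was chosen after the values were seen, the gene order is that of RefSeq on GRCm38.p6, and no test was made on it. Against C57BL/6J, 3 of the 175 genes were called in KK/HlJ (1.71%, beside 0.805% of all genes), and all 3 were class I genes of the T region, H2-T22 and H2-T23 lower and H2-T10 higher. In A/J, 6 were called (3.43%, beside 0.731% of all genes), namely H2-T22, H2-T23, H2-Q6 and the class II genes H2-Ob and H2-Ab1 lower and H2-Ea higher. In C3H/HeJ, 6 were called (3.43%, beside 0.899%), and in MRL/MpJ 7 (4.0%, beside 0.83%). H2-D1, H2-Q6, H2-Ob and the complement gene C4b were lower in both, H2-Ea and the meiotic recombination gene Msh5 were higher in both, and H2-Ab1 was lower in MRL/MpJ. In BALB/cJ, 3 were called (1.71%, beside 0.588%), H2-Ob and H2-Ab1 lower and H2-Ea higher. In the arrays labelled C57L/J, 4 were called (2.29%, beside 0.776%), H2-K1, H2-Ob and the complement gene C2 lower and H2-Ea higher. DBA/2J and 129S1/SvlmJ had 1 called gene each (0.571%, beside 0.598% and 0.83%), which was H2-Ea and H2-Q6.

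**Figure D4:**
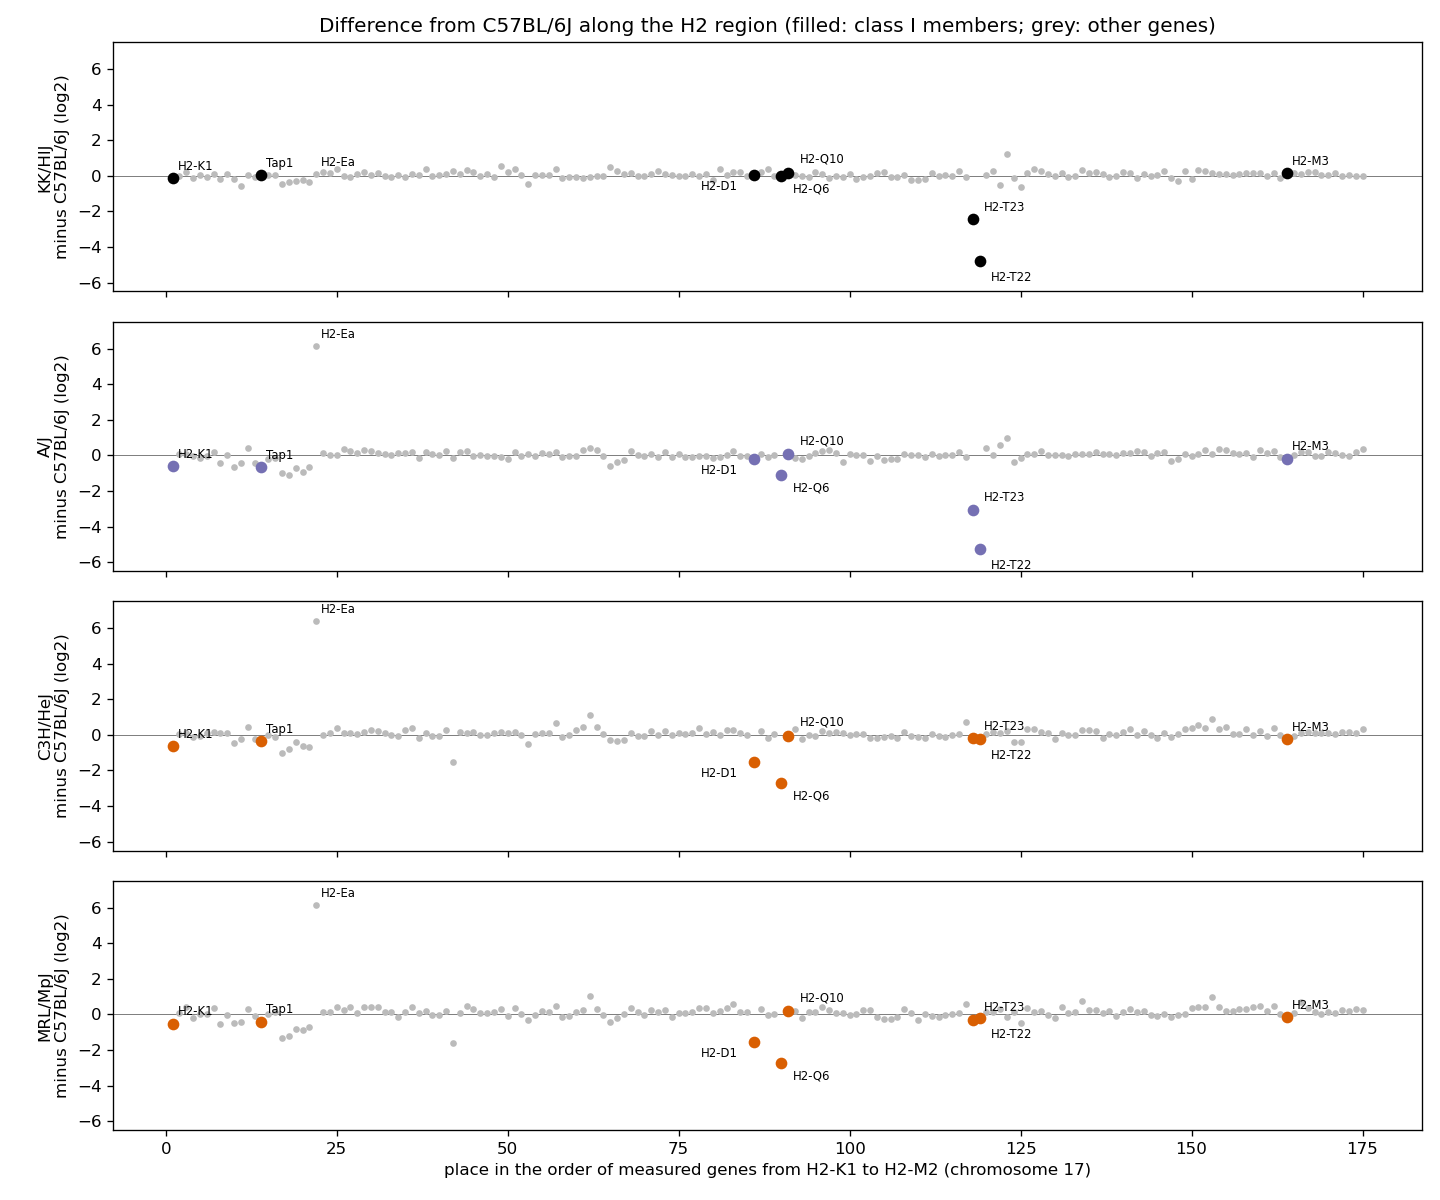
Difference in log2 signal from C57BL/6J for KK/HlJ, A/J, C3H/HeJ and MRL/MpJ (top to bottom), over the 175 measured genes in their order from H2-K1 to H2-M2. Filled points are the class I genes followed here (H2-Q9 was not among the 175 in the gene order used and is not drawn) and grey points are all others. H2-T22 and H2-T23 stand apart in the upper 2 panels, H2-D1 and H2-Q6 in the lower 2.

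The genes whose pattern over the 27 arrays was most like that of each member were sought by Pearson's correlation over all named genes. The arrays share strains, so the coefficients are a description with n = 27 arrays and no p. H2-Q6 and H2-Q9 were each other's closest gene (r = 0.949), as were H2-T22 and H2-T23 (r = 0.964). For H2-D1 the closest were Akr1e1 on chromosome 13 (r = 0.957), C4b on chromosome 17 (r = 0.945) and H2-Q6 (r = 0.911). C4b, a complement gene of the H2 complex, averaged 6.67 in C3H/HeJ and 6.62 in MRL/MpJ, while the other 7 strains lay at 7.77 to 8.48. Akr1e1 averaged 5.77 in C3H/HeJ and 5.28 in MRL/MpJ, beside 6.80 to 7.61 elsewhere, although it lies on another chromosome. For H2-T22 the next closest was Plpp1 on chromosome 13 (r = 0.944), which averaged 9.85 in A/J and 9.86 in KK/HlJ, against 10.54 to 10.85 in the others. Rnf215 on chromosome 11 followed (r = 0.897).

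The remaining members had weaker partners. H2-K1 was most like Abhd14b (r = 0.793) and Nxpe4 (r = 0.785), both on chromosome 9, and Nxpe4 averaged 7.09 in KK/HlJ and 7.32 in C57BL/6J, against 3.60 to 3.99 in the other 7 strains. Tap1 was most like Irf1 (r = 0.878), a transcription factor of the interferon response, and the interferon-induced GTPases Igtp (r = 0.848) and Irgm1 (r = 0.842). B2m was most like Gbp2 (r = 0.67), another interferon-induced GTPase, and Pomp (r = 0.667), a proteasome assembly factor. H2-M3 was most like Gm9917 (r = 0.825), Tmem178 (r = 0.803) and Ppbp (r = 0.776), and H2-Q10 most like Olfr1162 (r = 0.69), a level near background in both. Among the members, the D and Q genes and the T genes formed separate sets, with r = -0.28 between H2-T22 and H2-D1 and r = 0.09 between H2-K1 and H2-D1.

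Genes that load or regulate class I molecules were compared among the strains in the same way. Of 16 measured genes of antigen processing, 7 passed the strain F test (43.8%), with a median range of strain means of 0.27, and none was called in any strain pair. Psmb8 and Psmb9, the interferon-induced subunits of the immunoproteasome, changed most. Psmb8 fell by 0.54 in 129S1/SvlmJ (adjusted p = 3.77e-06) and rose by 0.30 in the arrays labelled C57L/J (adjusted p = 0.00372). Psmb9 fell by 0.47 in 129S1/SvlmJ (adjusted p = 4.56e-05) and by 0.23 in A/J (adjusted p = 0.0392), and rose by 0.26 in C57BL/6J (adjusted p = 0.0152), each against the other 8 strains. Tapbp, the tapasin that edits the bound peptide, rose by 0.23 in KK/HlJ (adjusted p = 0.00282) and fell by 0.16 in C3H/HeJ (adjusted p = 0.0427).

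Of 11 measured regulators 5 passed the F test (45.5%), with a median range of 0.29, and none was called in a strain pair. Nlrc5, the transactivator of class I genes, fell by 0.43 in 129S1/SvlmJ (adjusted p = 0.000812) and by 0.33 in A/J (adjusted p = 0.0113) and rose by 0.30 in C57BL/6J (adjusted p = 0.0179). In these 3 strains Nlrc5 and Tap1 moved the same way, but in KK/HlJ, where Tap1 rose, Nlrc5 differed by 0.06 (adjusted p = 0.781). Ifngr2, a chain of the interferon gamma receptor, had the smallest p of the list (adjusted p = 8.9e-06) and fell in A/J (0.30) and KK/HlJ (0.25). It rose in the arrays labelled C57L/J (0.27) and in 129S1/SvlmJ (0.26) and MRL/MpJ (0.25). Of 24 other class I and class I-like genes 12 passed (50.0%), with a median range of 0.54. In at least 1 strain pair 6 of the 24 were called, beside 4.27% of all genes. Mill2 (adjusted p = 8.74e-09), H2-T24 (4.53e-07), H2-Q8 (1.76e-06) and Azgp1 (2.24e-06) led that list. In the strains with low H2-D1, Nlrc5 differed from the other strains by 0.14 in C3H/HeJ (adjusted p = 0.327) and by 0.06 in MRL/MpJ (adjusted p = 0.671). All of these lists were chosen with earlier results of these data known. Their F test counts are descriptions beside 28.9% over all genes, and their strain pair counts beside 4.27%.

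**Figure D5:**
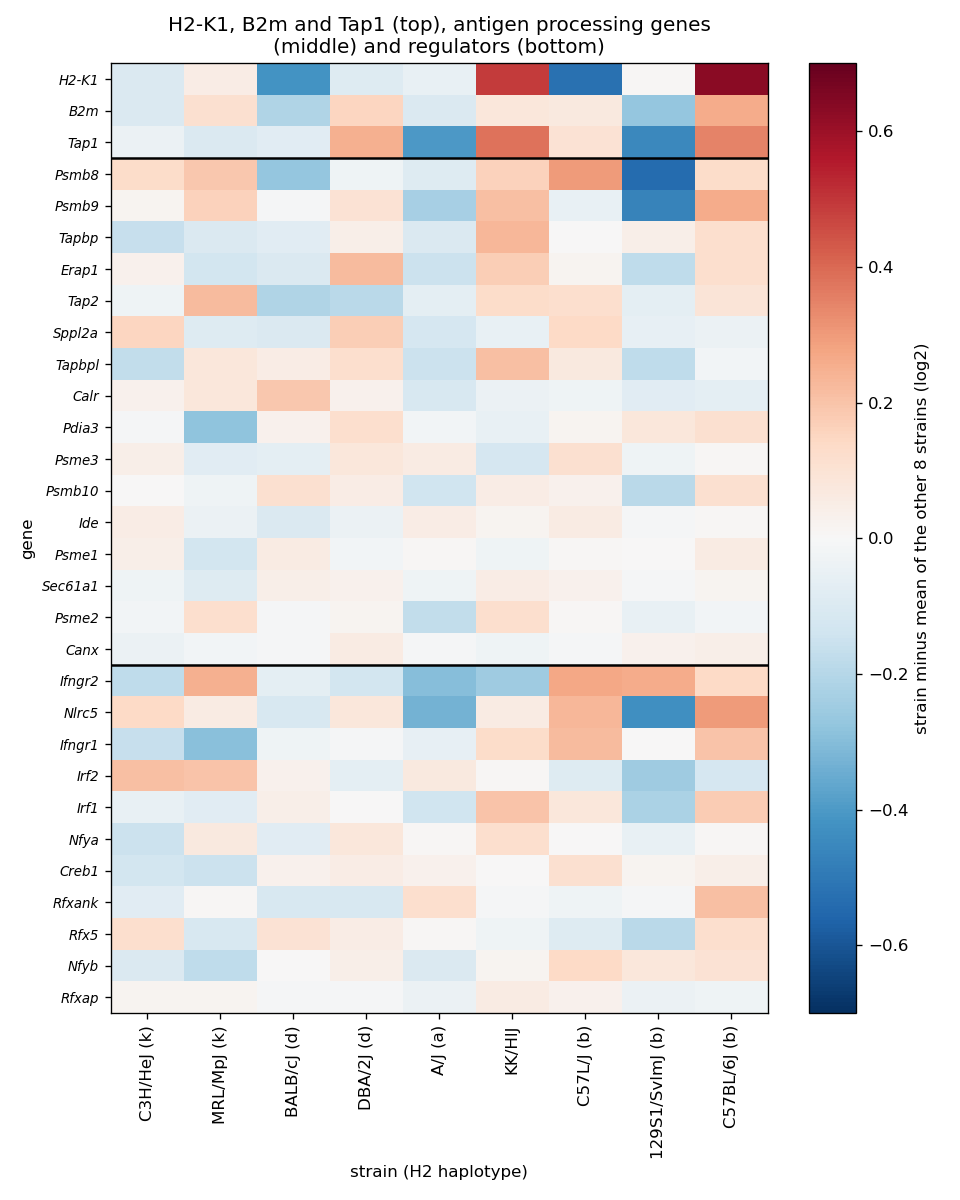
Difference of each strain (columns, H2 haplotype in brackets) from the mean of the other 8 strains, in log2 units by colour, for H2-K1, B2m and Tap1 (top block), antigen processing genes (middle block) and regulators (bottom block). Tap1, Psmb8, Psmb9 and Nlrc5 are lower in 129S1/SvlmJ, and most processing genes show little colour.

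None of the 10 class I genes was called between adenoma classes. The comparison took the strain as the unit, with 7 strains of increased against 2 of decreased severity and 3 of increased against 6 of decreased frequency. For severity the adjusted p ran from 0.81 to 0.956, beside 0.00988% of all genes called, and for frequency from 0.695 to 0.912, beside 0% of all genes. The smallest unadjusted p for severity was that of H2-K1, with 10.81 over increased and 11.12 over decreased strains, a difference of -0.31 ± 0.22 (SE, adjusted p = 0.81). For frequency it was that of H2-Q6, with 9.37 over increased and 8.44 over decreased strains, a difference of 0.93 ± 0.58 (SE, adjusted p = 0.695). The ranges of strain means overlapped between the classes for all 10 genes in both comparisons, while 6.69% of all genes had ranges that did not overlap for severity and 3.92% for frequency. The strains with low H2-D1, H2-Q6 and H2-Q9 fell on both sides of severity, C3H/HeJ being labelled increased and MRL/MpJ decreased, while both are labelled decreased in frequency, as are 4 other strains. Those with low H2-T22 and H2-T23 fell on both sides of severity and of frequency, A/J being labelled increased and KK/HlJ decreased in both.

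Several of these low levels coincide with haplotypes that differ in DNA sequence. Less transcript, loss of a gene and a poorer match of an allele to the array's probes cannot be told apart in these values, and the probe sequences were not analysed here.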

How the data were processed

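Right lung RNA of 27 female mice, 3 for each of 9 strains at 11 weeks, was measured on Mouse Gene 1.0 ST arrays. Per the labels' protocols the RNA was column-purified, checked for integrity and labelled with biotin. The authors deposited log2 signal for 21225 probe sets on each array. The submitters' processing notes name the affy package; its version and the normalization are not given in the sources used here. Values ran from 1.78 to 13.36 and array medians over the named probe sets from 6.27 to 6.40, and no further scaling was applied. GEO's platform table gave 1 symbol to 20239 probe sets and none to 986, which were left out. The number of arrays limits the precision.

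R 4.3.3 and limma 3.58.1 (lmFit, eBayes) were used. From 1 mean per strain came the F test over strains, the 36 strain pairs and each strain against the mean of the other 8. Strain means were the unit for the H2 haplotypes (8 strains, KK/HlJ left out) and the adenoma classes (9 strains). Each test was adjusted by Benjamini-Hochberg over all 20239 named genes, at 0.05, and strain pairs also had to differ by 1 or more on the log2 scale. The fits were run on simulated data with planted shifts and noise of the size found within strains. That noise held no further spread between strains, so the runs do not show how the haplotype and adenoma fits handle it. Named genes were the 10 members, the 3 genes most correlated with each, up to 4 genes per list with the smallest F p, and any measured H2-Q, H2-T or H2-M gene; other genes of the H2 region were named after their values were seen. The members and gene lists were chosen with earlier results of these data known.

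Replicate numbers did not pair the mice: deviations from strain means correlated at a median of 0 between same-numbered arrays (108 pairs, -0.272 to 0.276) and of 0.002 between others (216 pairs). Alternatives changed the normalization, filter, variance prior, array weights, minimum difference and adjustment, took the replicate number or the strain as a block, moved A/J between haplotypes, and left out each array, each strain and the arrays labelled C57L/J. Promoter windows and gene order came from RefSeq on GRCm38.p6. No protein sequences were used here.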

Additional observations from a re-analysis of the deposited data

Results flagged for a closer look

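Within the adenoma classes, single strains stood far from the rest of their class by Dixon's ratio for 6 of the 20 gene and class combinations with 6 or 7 strains. The cutoff allows about 1 in 20 for a single combination, but these combinations are not independent. H2-T22 and H2-T23 moved together (r = 0.964), and the genes were chosen with earlier results of these data known. The share over all genes was not computed, so the count is a description only. Among the 7 strains of increased severity, H2-D1 averaged 8.67 in C3H/HeJ, with the next strain at 9.91 and the highest at 10.27. In the same class H2-T22 averaged 4.30 in A/J with the next strain at 8.80, and H2-T23 averaged 6.86 in A/J with the next at 9.41. H2-Q10 averaged 5.48 in the arrays labelled C57L/J, with the next strain at 5.13, all near the background. Among the 6 strains of decreased frequency, H2-T22 averaged 4.81 in KK/HlJ with the next strain at 8.80. H2-T23 averaged 7.48 in KK/HlJ with the next at 9.41. These are the strains described above as low in H2-D1, H2-T22 and H2-T23, and the causes were not tested.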

How the results depend on the processing

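No result reversed. Over the 10 genes, the strain F test called 8 to 9 with any array or strain left out and 8 to 9 in the other settings (all genes 5181 to 6103, 4761 to 6073 and 5461 to 6860); 8 of the 9 calls held in every setting and B2m was the exception. Strain pairs gave 80 to 88 calls with an array left out (all genes 4661 to 5221), 138 with no minimum difference (all genes 53269), and 22846 over all genes at a minimum of 0.5, beside 84 and 4770. In every setting run, 78 of the 84 pair calls held, and 33 of the 46 calls of a strain against the other 8 (42 to 47 calls with an array left out). The haplotype F test called 1 class I gene with any array left out (all genes 3 to 5) and 0 to 2 with a strain left out (0 to 7). It called 2 with an intensity trend and robust prior (all genes 8), 5 with arrays and the strain as a random block (372), 0 with A/J left out (1) and 0 with A/J placed with k (0); with A/J placed with d all genes gave 6. The adenoma tests called 0 of the 10 genes in every setting. Over all genes, severity gave 1 to 3 with an array left out, 2 to 53 with a strain left out, 1 without dim probe sets and 73 with the random block, beside 2, and frequency 0 to 0, 0 to 1 and 16 with the random block, beside 0. With the replicate number as a block the counts for the 10 genes were 9 for the F test, 84 for strain pairs, 46 for strains against the other 8, 1 for the haplotypes and 0 for both adenoma classes; Tap1 in C57BL/6J was lost and H2-Q10 in the arrays labelled C57L/J was gained (0.38, adjusted p = 0.0344). The causes of these changes were not tested. Array weights were not run for the haplotype and adenoma tests. Limits are 3 mice per strain, 2 strains each for haplotypes k and d and 1 for a, levels near background for H2-Q10, and for H2-T22 and H2-Q9 in their low strains.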
